A study of Mus musculus with 12 samples.

Results

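The C-type lectin genes named Clec were followed across dendritic cells (DCs) from the spleens of wild-type mice (WT) and of mice without miR-142 (KO), with and without lipopolysaccharide (LPS). Members were all mouse gene symbols made of Clec and a digit that had a probe set assigned to a single gene, apart from Clec9a, Clec4a4 and Clec10a. This rule, which uses no measured difference, gave 24 members among 17097 genes on the array. All 24 members were matched to a RefSeq gene by Entrez number, and 18 of them lie on chromosome 6.

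The 4 groups were WT unstimulated, WT given LPS, KO unstimulated and KO given LPS, with 3 arrays in each. The animals were male C57BL/6 mice aged 10 weeks. Those called KO lack miR-142, a microRNA of blood cells, and those called WT were their littermates. DCs were taken from individual spleens by positive selection, and no source used here gives how much LPS the cells received or for how long. The labels name no promoter or cell type that limits the deletion. The array numbers of the labels run from 1 to 3 in each group. Within a genotype the 2 arrays that carry one number, unstimulated and LPS, deviated together and were treated as a pair, although the labels do not say that they share a mouse. P-values measure the spread between these arrays.

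C-type lectin receptors are surface proteins whose extracellular domain recognises sugars, glycolipids or protein ligands. Dectin-1 (Clec7a) carries its own short tyrosine motif, while Dectin-2 (Clec4n), Mincle (Clec4e) and MCL (Clec4d) signal through the Fc receptor gamma chain, and both routes lead to the kinase Syk and the adaptor Card9. DCs and macrophages use them to sense fungi and mycobacteria, whereas others, such as Clec4a2 (DCIR), carry an inhibitory motif, and several Clec2 proteins are ligands read by NK cell receptors of the Klrb1 family. The mature arms of the deleted microRNA are shown because they define the genotype, with the seed (bases 2 to 8) in capitals. They are from RefSeq (GRCm38.p6), both on the plus strand, at chr11:87756867-87756887 for the 5p arm and chr11:87756903-87756925 for the 3p arm.
mmu-miR-142a-5p: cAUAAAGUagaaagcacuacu
mmu-miR-142a-3p: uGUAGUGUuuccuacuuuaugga
The array had 0 single-gene probe sets for Mir142, so the deletion itself was not checked in these data.

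Values are log2 signals normalised by the authors with RMA, and array medians lay between 2.65 and 2.72. The mean of 9 markers of conventional DCs (H2-Ab1, Flt3 and Zbtb46 among them) was 6.72 to 7.37 on the 12 arrays, and the mean of 5 measured T cell markers, of 7 listed, was 3.08 to 3.78. The corresponding means were 4.80 to 6.28 for 6 measured B cell markers and 5.50 to 6.52 for 13 measured monocyte and macrophage markers. Of the DC markers 0 were under the array median on all arrays, but the class II genes in that list are shared with B cells, and levels of different probe sets cannot be ranked. The samples were taken as DCs from the labels, of which a description field names T cells. KO LPS array 2 stood apart: its correlation with the other arrays was 0.933 to 0.960, against 0.959 to 0.991 among the rest, and its 3′ Gapdh control probe set exceeded the middle one by 3.04, against 1.53 to 1.86 on the other arrays. A gene was called when its adjusted p (Benjamini-Hochberg over all 17097 genes, limma) was under 0.05.

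Of the 24 members, 13 were above the array median on all 12 arrays, 7 were below it on all 12 and 4 lay on both sides. The 7 low members were Clec11a, Clec12b, Clec18a, Clec2g, Clec2m, Clec4f (a Kupffer cell lectin) and Clec4g (a lectin of liver sinusoidal endothelium), with values from 1.42 to 2.61. The 4 in between were Clec14a, an endothelial lectin under the median on 10 arrays, Clec2l, under it on 10 arrays, Clec5a, under it on 5 arrays, and Clec16a, under it on 1 array. The deposited table gives no detection calls, so a value below the median shows only that it was no brighter than the typical probe set. In bulk RNA a lower value from fewer cells of a type and one from less RNA per cell cannot be told apart.

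The comparison of genotypes asked whether loss of miR-142 went with a different set of lectins. Without stimulation 0 of 24 members were called higher and 0 lower in KO, against 43 of 17097 genes or 0.252% of all genes called in this comparison. At an unadjusted p under 0.05, 3 members were higher and 1 was lower, and 8.73% of all genes passed that level in either direction. After LPS 0 of 24 members were called higher and 0 lower in KO, against 76 genes or 0.445% of all genes. The unadjusted level was passed by 2 members higher and 3 lower there, and by 13.8% of all genes. The median log2 difference over the members was 0.02 unstimulated and -0.03 after LPS, and over all genes it was -0.0006 and -0.03. The group means of these comparisons come from different arrays, although arrays of one number are paired between them. The tests are not independent, because one model gave both a residual variance pooled over all groups. Leaving out KO LPS array 2, the array that stood apart, changed the number of genes called without stimulation from 43 to 166.

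Members were also counted when all 3 KO arrays lay on one side of all 3 WT arrays. Without stimulation 2 members were higher in this sense, Clec4e and Clec5a, against 8.99% of all genes, and 6 were lower, against 7.87% of all genes. The 6 were Clec12b, Clec18a, Clec2g, Clec2l, Clec2m and Clec4g, all under the array median on at least 10 arrays. After LPS the same 2 members were higher, against 6.92% of all genes, and 3 were lower (Clec14a, Clec2g and Clec4b1), against 10.2% of all genes. The largest differences belonged to Clec5a, Clec4d and Clec4e, and these are given array by array.

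Clec4e encodes Mincle, a receptor for the mycobacterial cord factor that is known as an inducible gene of myeloid cells. Its WT unstimulated values were 6.18, 5.75 and 5.36 on arrays 1 to 3, and its KO unstimulated values were 7.06, 6.75 and 6.19. After LPS the WT values were 7.04, 6.96 and 6.50 and the KO values 8.20, 8.31 and 7.07. In each condition the lowest KO array was above the highest WT array, narrowly, and array 3 was the lowest of its group in all 4 groups. The KO minus WT difference was 0.91 ± 0.33 (log2, SE, n = 3 per group; 95% interval 0.20 to 1.62) without LPS and 1.02 ± 0.33 (0.32 to 1.73) with it. Neither was called by limma, with adjusted p = 0.416 and adjusted p = 0.208. When KO LPS array 3 was left out, the second difference was 1.42 with a limma adjusted p of 0.0294, in a fit that called 2.09% of all genes. Without KO LPS array 2, the array that stood apart, that difference was 0.80. With each array left out in turn, its limma adjusted p reached 0.500. On this probe set Clec4e thus had separated groups but no call in the fit of 4 group means with all arrays. On a second Clec4e probe set the genotype groups overlapped after LPS, with KO array 3 at 5.30 and WT array 1 at 5.39. Its KO minus WT differences were 0.58 ± 0.29 without LPS (limma adjusted p = 0.630) and 1.03 ± 0.29 with it (limma adjusted p = 0.165).

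Clec4d encodes MCL, the partner lectin of Mincle. On arrays 1 to 3 it read 7.55, 6.87 and 5.98 in WT unstimulated DCs and 8.71, 8.38 and 7.07 in KO unstimulated DCs. After LPS it read 7.55, 7.24 and 6.56 in WT and 8.96, 8.14 and 7.42 in KO. The genotype groups overlapped in both conditions, because KO array 3 lay below WT array 1, and array 3 was again lowest in every group. The KO minus WT differences were 1.25 ± 0.50 (limma adjusted p = 0.469) and 1.06 ± 0.50 (limma adjusted p = 0.372).

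Clec5a encodes MDL-1, a myeloid receptor that signals through the adaptor DAP12 (Tyrobp). It is described array by array after its values were seen, since it is not above the median throughout. WT values were 2.58, 2.84 and 2.53 without LPS and 2.56, 2.62 and 2.53 with it, and 5 of these 6 lay under the array median. KO values were 5.22, 5.53 and 2.89 without LPS and 5.06, 5.33 and 3.07 with it. KO arrays 1 and 2 stood far above WT while KO array 3 lay much nearer to WT. The differences, 1.90 ± 0.63 (95% interval 0.52 to 3.27; limma adjusted p = 0.353) and 1.91 ± 0.63 (0.54 to 3.29; limma adjusted p = 0.225), were not called. Leaving out KO array 3 of the condition gave a limma call in each condition: 2.73 with adjusted p = 0.0440 unstimulated, where 0.456% of all genes were called, and 2.62 with adjusted p = 0.0396 after LPS, where 2.09% were called. Leaving out KO array 2 of the condition instead gave 1.40 unstimulated and 1.49 after LPS. With each array left out in turn, the limma adjusted p reached 0.849 unstimulated and 0.484 after LPS. The Clec5a call therefore turned on the third KO array.

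The mean signal of neutrophil markers was also higher on the KO arrays than on the WT arrays. Of 14 neutrophil markers 11 were measured, and their mean was 3.34 to 4.51 in WT unstimulated, 3.37 to 4.43 in WT LPS, 5.74 to 8.11 in KO unstimulated and 5.64 to 7.51 in KO LPS arrays. KO arrays 1, 2 and 3 had means of 7.79, 8.11 and 5.74 without LPS and of 7.51, 7.47 and 5.64 with it. KO array 3, the lowest KO array for Clec4e, Clec4d and Clec5a, was thus also the lowest for the mean of these markers. The lowest marker mean in WT was on WT array 3 too. That order was not particular to those 3 lectins. KO array 3 was likewise the lowest KO array in both conditions for Clec4a2, Clec1b and Clec7a. In both genotype comparisons 3 of the 11 (Lcn2, Ngp and Camp, all granule proteins) rose in KO and 0 fell. Of all genes, 0.252% were called without LPS and 0.445% with it. The marker list was chosen with earlier results of these data known, so its count does not test an excess over that share. The median difference over the list was 2.85 without LPS and 3.00 with it. Each of those 6 calls ended on leaving out 1 of several arrays, WT arrays 2 and 3 of the condition among them in every case, with limma adjusted p up to 0.155. None of the 11 was under the array median on all arrays. The part of neutrophil RNA in the values of Clec4e, Clec4d and Clec5a was not tested.

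**Figure D1:**
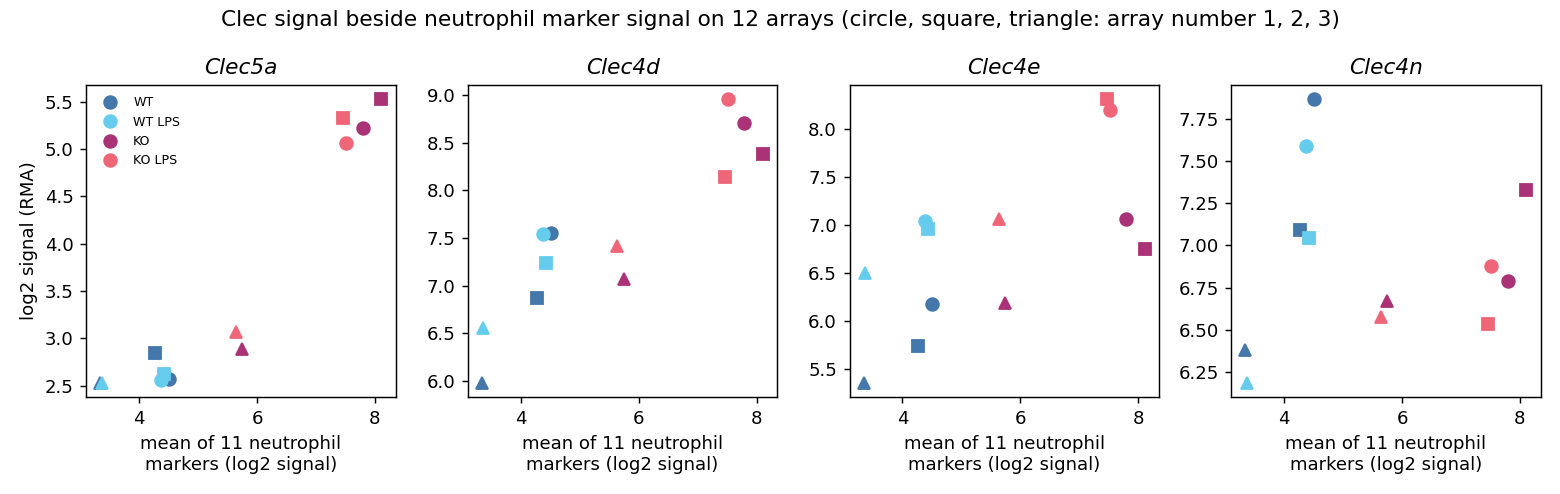
Log2 signal of Clec4e, Clec4d and Clec5a against the mean log2 signal of the 11 measured neutrophil markers, one point per array, coloured by group. KO arrays have marker means of 5.64 to 8.11 and WT arrays of 3.34 to 4.51, and within KO array 3 has the lowest marker mean and the lowest value of each gene.

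With the pairs as a random block 0 of 24 members were called in either genotype comparison, against 0.304% of all genes without LPS and 0.491% with it. A contrast averaged over both stimulations, added after the data were seen, used the array number within genotype as a random block. It gave 1.90 ± 0.45 for Clec5a (limma adjusted p = 0.0539), 0.97 ± 0.23 for Clec4e (limma adjusted p = 0.0620) and 1.15 ± 0.35 for Clec4d (limma adjusted p = 0.135). It called 0 members and 1.66% of all genes. Between the means of the 6 pairs, 3 per genotype, limma gave adjusted p = 0.252, 0.241 and 0.354 for the same genes and called 0.24% of all genes.

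The other genes of the Dectin-2 cluster, which neighbours Clec4e and Clec4d on chromosome 6 in the RefSeq gene order, had smaller differences. Clec4n, which encodes Dectin-2 itself, a receptor for fungal mannans, read 7.87, 7.09 and 6.38 in WT unstimulated and 6.79, 7.33 and 6.67 in KO unstimulated arrays. After LPS it read 7.59, 7.04 and 6.18 in WT and 6.88, 6.53 and 6.58 in KO. The KO values lay within the WT range in both conditions, with differences of -0.18 ± 0.37 (95% interval -0.99 to 0.62; limma adjusted p = 0.954) and -0.27 ± 0.37 (-1.08 to 0.53; limma adjusted p = 0.783). The direction is therefore not settled for Clec4n. The inhibitory receptor Clec4a2 had group means of 5.25 ± 0.72 (SD, n = 3) in WT and 5.70 ± 0.49 in KO without LPS, and of 5.24 ± 0.46 and 5.78 ± 0.65 with it. Its differences of 0.45 ± 0.40 (limma adjusted p = 0.839) and 0.54 ± 0.40 (limma adjusted p = 0.575) were not called. Without WT array 3 the first was 0.042, and without KO LPS array 2 the second was 0.19. Clec4b1, the last gene of the cluster with a value, had group means of 3.28 ± 0.41 in WT and 3.29 ± 0.25 in KO without LPS, and of 3.53 ± 0.08 and 3.25 ± 0.12 with it.

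On the WT arrays Clec4n, Clec4d, Clec4e and Clec4a2 all had their lowest value on array 3 in both conditions. The mean of 13 measured monocyte and macrophage markers, of 15 listed, was likewise lowest on WT array 3, at 5.61 of a range to 6.50 without LPS and at 5.50 of a range to 6.37 with it. In KO that mean on arrays 1 to 3 was 6.08, 6.52 and 6.28 without LPS and 6.02, 5.57 and 6.17 with it. It was thus not lowest on KO array 3. Among other lists, the neutrophil and NK cell marker means were also lowest on WT array 3. They were 3.34 and 3.77 there without LPS, and 3.37 and 3.85 with it. The mean of the conventional DC markers was highest on that array, at 7.34 and 7.37. The part of monocytes and macrophages in the lectin values was not tested.

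In the Dectin-1 cluster Clec7a, the beta-glucan receptor Dectin-1, read 7.38, 7.37 and 7.33 in WT unstimulated arrays, a spread of 0.02 (SD, n = 3), and 7.63, 7.32 and 7.27 in KO unstimulated arrays. The groups overlapped, and the difference was 0.05 ± 0.19 (-0.35 to 0.45; limma adjusted p = 0.973). After LPS the KO values were 7.21, 7.43 and 6.54 against 6.83, 6.72 and 6.70 in WT, a difference of 0.31 ± 0.19 (limma adjusted p = 0.483). Without KO LPS array 3 that difference was 0.57 with a limma adjusted p of 0.0499, while 2.09% of all genes were called, and without KO LPS array 2 it was 0.12. Clec1a, a lectin that binds melanin, differed between genotypes by -0.32 ± 0.17 without LPS (limma adjusted p = 0.645) and by 0.03 ± 0.17 with it (limma adjusted p = 0.959). On a second Clec1a probe set the order was the other way, with -0.06 ± 0.15 without LPS and -0.33 ± 0.15 with it. Neither was called (limma adjusted p = 0.964 and 0.360).

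Clec1b encodes CLEC-2, the podoplanin receptor that platelets carry in quantity. It read 5.76, 5.20 and 4.0 in WT unstimulated arrays and 5.83, 5.58 and 5.39 in KO unstimulated arrays. After LPS it read 5.63, 5.02 and 3.87 in WT and 6.20, 5.80 and 5.24 in KO. WT array 3 was lowest in both conditions, the WT spread was 0.90 in each (SD, n = 3), and the groups overlapped. The differences were 0.61 ± 0.46 (limma adjusted p = 0.781) and 0.91 ± 0.46 (limma adjusted p = 0.406), and without WT array 3 of the condition they were 0.12 and 0.42. The mean of 9 measured platelet markers, of 10 listed, was 3.24, 3.57 and 3.45 on WT arrays 1 to 3 without LPS. With LPS it was 3.29, 3.62 and 3.35, so it was lowest on WT array 1, where Clec1b was highest. In KO it was 4.63, 3.82 and 3.90 without LPS and 4.86, 3.79 and 3.64 with it, highest on array 1 like Clec1b. In both genotype comparisons 0 of the 9 were called, against 0.252% and 0.445% of all genes. The part of platelet RNA in the Clec1b values was not tested.

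**Figure D2:**
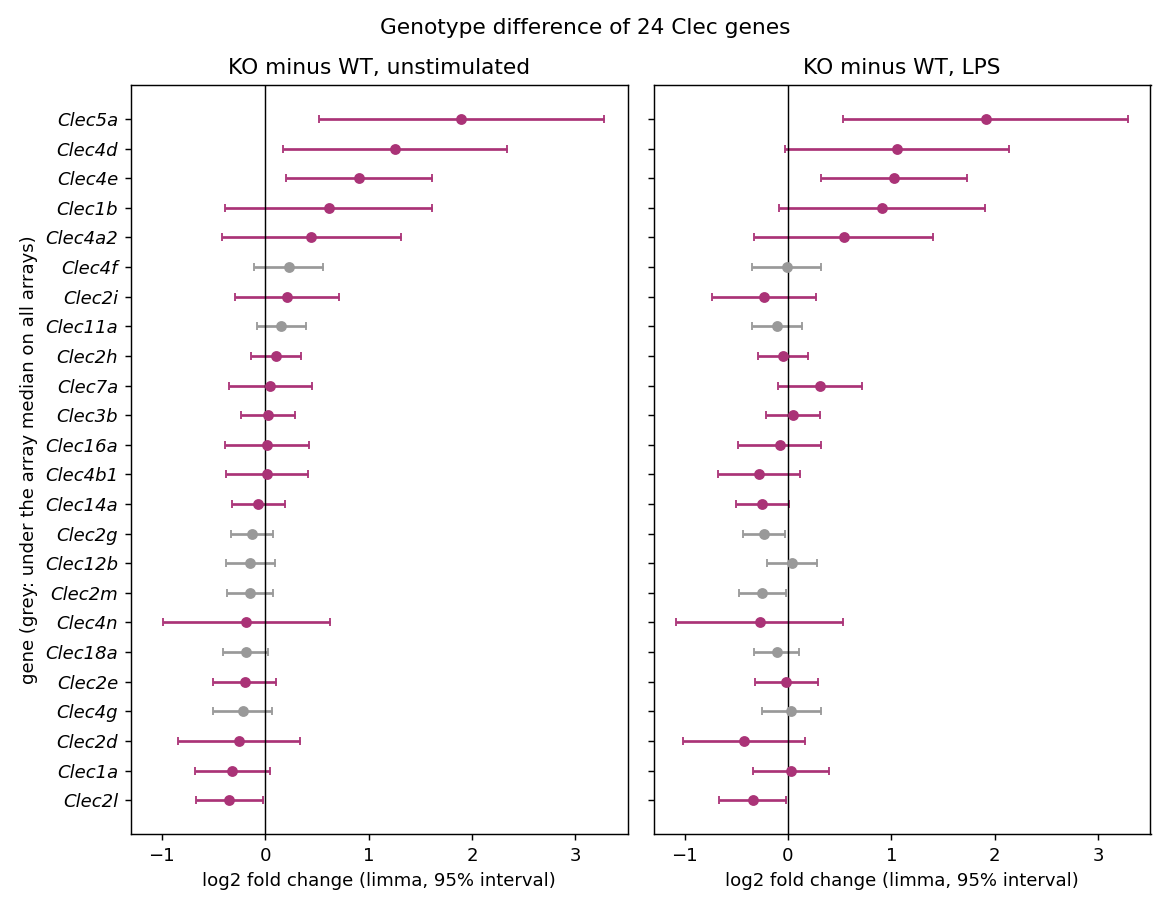
KO minus WT log2 difference of each of the 24 members with its 95% interval from the limma fit, unstimulated and after LPS. Clec5a, Clec4d and Clec4e lie furthest to the right, at 1.90, 1.25 and 0.91 without LPS, and no member passed the adjusted p of 0.05.

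Clec2d, Clec2e, Clec2h and Clec2i encode Clr proteins, a group of ligands for NK cell receptors, and lie in the NK gene complex. Clec2d (Clr-b), the ligand of the inhibitory receptor Klrb1b, read 4.96, 3.97 and 4.50 in WT unstimulated arrays and 4.41, 4.06 and 4.21 in KO. After LPS it read 5.0, 4.43 and 5.09 in WT and 4.77, 3.88 and 4.59 in KO. The genotype groups overlapped, with differences of -0.25 ± 0.27 (limma adjusted p = 0.879) and -0.43 ± 0.27 (limma adjusted p = 0.508). Without WT array 1 the first was -0.0074, and without KO LPS array 2 the second was -0.16. Clec2i (Clr-g), a ligand of Klrb1f, had group means of 5.12 ± 0.28 (SD, n = 3) in WT and 5.33 ± 0.08 in KO without LPS. With LPS they were 4.81 ± 0.18 and 4.58 ± 0.56. The KO minus WT differences were 0.21 ± 0.23 (limma adjusted p = 0.880) and -0.23 ± 0.23 (limma adjusted p = 0.699). On a second Clec2i probe set they were -0.06 ± 0.37 (limma adjusted p = 0.987) and 0.65 ± 0.37 (limma adjusted p = 0.457). The further Clr genes Clec2h and Clec2e had group means of 3.55 ± 0.10 and 3.26 ± 0.21 in WT unstimulated DCs, and of 3.66 ± 0.06 and 3.06 ± 0.19 in KO. Clec2l, a lectin best known from brain whose gene lies elsewhere on chromosome 6, had KO minus WT differences of -0.35 ± 0.15 and -0.34 ± 0.15, with limma adjusted p = 0.524 and adjusted p = 0.342, at values of 2.02 to 2.84 near the array median.

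Of the 5 listed partners (Klrb1a, Klrb1b, Klrb1c, Klrb1f and Pdpn) all were measured, and 1 of 5 rose in KO without LPS (Klrb1b) and 2 of 5 rose with it (Klrb1b and Klrb1f), while 0 fell, against 0.252% and 0.445% of all genes called. Klrb1b read 5.0, 4.91 and 4.74 in WT unstimulated arrays and 5.83, 5.82 and 5.92 in KO, a difference of 0.98 ± 0.15 (limma adjusted p = 0.0245). After LPS it read 4.78, 4.34 and 4.08 in WT and 5.87, 5.70 and 5.68 in KO, a difference of 1.35 ± 0.15 (limma adjusted p = 0.00640). Klrb1f read 3.00, 2.95 and 2.48 in WT and 4.08, 4.23 and 3.62 in KO after LPS, a difference of 1.17 ± 0.19 (limma adjusted p = 0.0215). The WT and KO arrays did not overlap for either receptor. The unstimulated Klrb1b call ended without any 1 of the 3 WT arrays or KO arrays 1 or 2 (limma adjusted p up to 0.140), its call after LPS without WT array 2 (0.0572), and the Klrb1f call without any 1 WT array (up to 0.111). The mean of 12 measured NK cell markers, of 13 listed, was 3.77 to 4.48 over the WT arrays and 5.55 to 5.81 over the KO arrays, and its part in the Klrb1 values was not tested. Klrb1c is in both lists. These lists too were chosen with earlier results of these data known, so their counts do not test an excess over all genes.

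Of 28 listed adaptors, kinases and downstream genes of lectin signalling 23 were measured, and 0 rose and 0 fell in KO in either condition. Their median difference was 0.06 without LPS and -0.06 with it, close to that over all genes. Of 20 lectin genes outside the Clec names 19 were measured, and 0 were called in either genotype comparison.

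The LPS comparisons asked which lectins responded to the bacterial product in each genotype. Clec4e was higher on the LPS array in all 6 pairs, by 0.86, 1.22 and 1.14 in WT and by 1.14, 1.56 and 0.87 in KO. It was the only member higher in all 6 pairs, and 4.19% of all genes were. The groups did not overlap in either genotype. In the limma fit without pairs the LPS effect was 1.07 ± 0.33 in WT and 1.19 ± 0.33 in KO, with limma adjusted p = 0.624 and adjusted p = 0.212. In that fit 0 of 24 members were called in WT, against 0.117% of all genes, and 0 of 24 in KO, against 0.392%. At an unadjusted p under 0.05, 1 member was higher and 2 were lower in WT, and 1 was higher and 1 lower in KO, while 5.12% and 9.47% of all genes passed.

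With each pair as a fixed block, Clec4e rose in both genotypes. The limma estimates were 1.07 ± 0.14 in WT, a 2.10-fold rise (95% interval 1.69 to 2.62; adjusted p = 0.00833), and 1.19 ± 0.14 in KO, a 2.28-fold rise (1.83 to 2.84; adjusted p = 0.00300). It was the only member called in this fit, in which 0.439% of all genes were called in WT and 0.866% in KO. With the pair as a random block Clec4e was not called, at limma adjusted p = 0.268 in WT and adjusted p = 0.0868 in KO, where 0.281% and 0.79% of all genes were called. Without KO LPS array 3, and without pairs, the KO effect was 1.59 with a limma adjusted p of 0.0271 and 0.509% of all genes called. In the fixed block the KO call held with any 1 of the 6 pairs left out, with limma adjusted p from 0.00246 to 0.0330. The WT call ended when WT pair 1, 2 or 3 was left out, at limma adjusted p = 0.0728, 0.184 and 0.158. The second Clec4e probe set was tested on its own in the fixed block. It rose by 0.98 ± 0.17 in WT (limma adjusted p = 0.0497) and by 1.43 ± 0.17 in KO (limma adjusted p = 0.00380). The LPS effect on the neutrophil markers had a median of -0.05 in WT and -0.35 in KO, and in the fixed block 0 of the 11 rose in either genotype, 0 fell in WT and 1 fell in KO (Cxcr2).

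**Figure D3:**
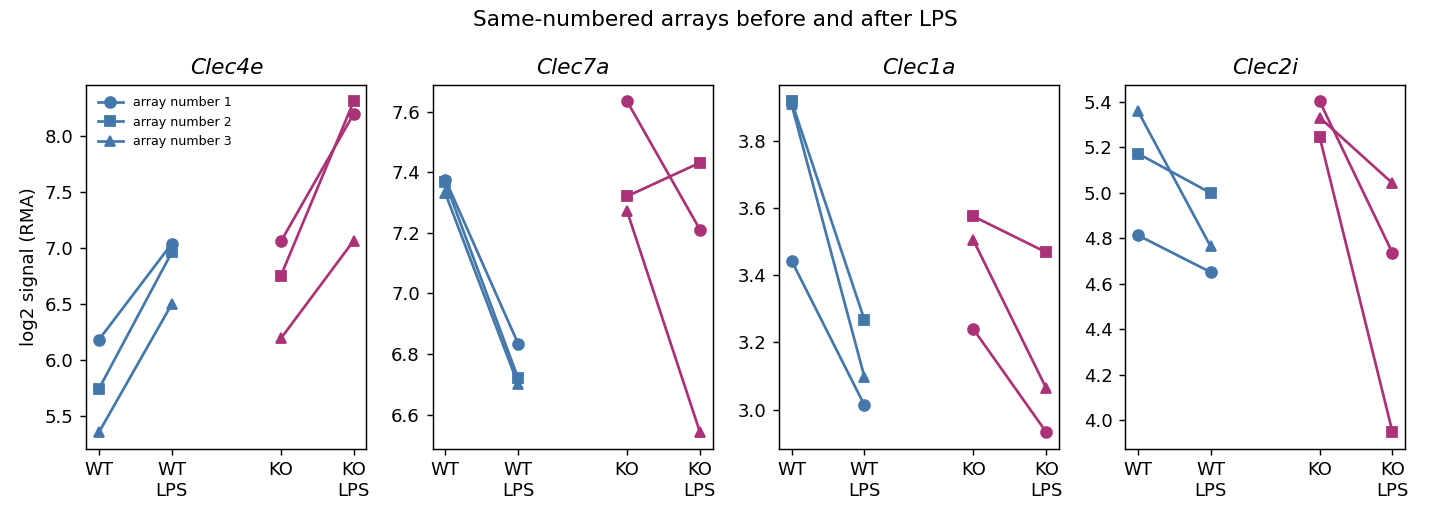
Log2 signal of members unstimulated and after LPS, with a line joining the arrays of one number in WT and in KO. Every Clec4e line goes up, by 0.86 to 1.56, and every Clec1a and Clec2i line goes down.

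The remaining Dectin-2 cluster genes were not called for LPS. The LPS effect on Clec4d was 0.31 ± 0.50 in WT and 0.12 ± 0.50 in KO, with pairs going both ways. For Clec4n it was -0.18 ± 0.37 and -0.27 ± 0.37, and for Clec4a2 -0.01 ± 0.40 and 0.08 ± 0.40. None of these was called by limma with or without the pairs, and for Clec4d the 95% interval was -0.77 to 1.39 in WT without the pairs. With the pairs as a fixed block it was -0.02 to 0.65 in WT and -0.22 to 0.45 in KO, which leaves out the Clec4e estimates of 1.07 and 1.19, although the 2 genes were not tested against each other.

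The 250 bases before the start of Clec4e and of its neighbour Clec4d are shown, since Clec4e was called for LPS with the pairs as a fixed block and Clec4d was not. They come from RefSeq (GRCm38.p6), at chr6:123289872-123290121 on the minus strand for Clec4e and chr6:123261857-123262106 on the plus strand for Clec4d. Capitals mark matches of the motif TTNNGNAA, the form bound by C/EBP factors, on either strand. This motif was added after these sequences were read, so its matches are no test against the share over all promoters.
Clec4e: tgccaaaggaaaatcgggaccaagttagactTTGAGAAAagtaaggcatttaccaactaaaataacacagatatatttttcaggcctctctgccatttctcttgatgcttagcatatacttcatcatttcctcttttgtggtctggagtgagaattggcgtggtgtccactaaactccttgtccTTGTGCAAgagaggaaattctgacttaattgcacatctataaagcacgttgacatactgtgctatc
Clec4d: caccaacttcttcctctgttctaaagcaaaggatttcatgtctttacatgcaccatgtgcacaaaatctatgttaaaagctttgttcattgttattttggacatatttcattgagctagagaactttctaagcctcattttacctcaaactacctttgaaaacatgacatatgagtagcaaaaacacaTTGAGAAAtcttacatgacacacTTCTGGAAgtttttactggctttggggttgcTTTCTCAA
Clec4e had 2 matches of TTNNGNAA, at 219 to 212 and at 66 to 59 bases before its start. Clec4d had 3, at 62 to 55, 39 to 32 and 8 to 1 bases before its start. GGGAA, the conserved core of NF-kB sites, searched on both strands, had 0 matches in either stretch. Among 32851 promoters of the same length, 36.8% held TTNNGNAA and 56.2% held GGGAA. Of the 24 members 21 had a promoter in the table, 11 of them with TTNNGNAA and 10 with GGGAA.

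Clec1a and Clec2i were lower on the LPS array in all 6 pairs, as were 4.20% of all genes, on the probe set that stands for each gene. Clec1a read 3.44, 3.92 and 3.91 in WT unstimulated arrays and 3.01, 3.27 and 3.10 after LPS, with no overlap, an effect of -0.63 ± 0.17 (limma adjusted p = 0.423). In KO it read 3.24, 3.58 and 3.5 without LPS and 2.93, 3.47 and 3.06 with it, an effect of -0.28 ± 0.17 (limma adjusted p = 0.642), which was -0.44 without KO LPS array 2. With the pairs as a fixed block the WT effect had a limma adjusted p of 0.0713, so Clec1a was not called there either. A second Clec1a probe set gave LPS effects of -0.14 ± 0.15 in WT and -0.41 ± 0.15 in KO and was higher on the LPS array in WT pair 3, at 2.77 against 2.71.

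Clec2i read 4.81, 5.17 and 5.36 in WT unstimulated arrays and 4.65, 5.0 and 4.76 after LPS. In KO it read 5.40, 5.24 and 5.33 without LPS and 4.74, 3.95 and 5.04 with it, an effect of -0.75 ± 0.23 (limma adjusted p = 0.290; 0.102 with the pairs as a fixed block). The lowest value, 3.95, is on KO LPS array 2, the array that stood apart, and without it the effect was -0.44. A second Clec2i probe set read 5.08 on that array, its highest value, and gave an LPS effect of 0.02 in KO, so the 2 probe sets disagree there.

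Clec7a was lower on the LPS array in 5 of 6 pairs. Its WT values went from 7.38, 7.37 and 7.33 without LPS to 6.83, 6.72 and 6.70 with it, with no overlap and little spread within either group. The effect was -0.61 ± 0.19 in WT (limma adjusted p = 0.629; 0.233 with the pairs as a fixed block) and -0.35 ± 0.19 in KO (limma adjusted p = 0.599). The KO effect was -0.53 without KO LPS array 2 and -0.087 without KO LPS array 3. The exception was KO pair 2, whose LPS array is the one that stood apart.

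The LPS groups were also compared for members whose arrays did not overlap. In WT 2 members were higher on all LPS arrays (Clec4e and Clec2g), against 6.81% of all genes, and 3 were lower (Clec1a, Clec3b and Clec7a), against 5.09%. In KO 3 were higher (Clec4e, Clec12b and Clec4g), against 5.75% of all genes, and 3 were lower (Clec2i, Clec14a and Clec2m), against 7.71%. Clec3b, which encodes the plasma protein tetranectin, had means of 3.07 ± 0.10 (SD, n = 3) and 2.97 ± 0.02 in WT. The 7 members under the array median on all arrays had LPS effects of -0.14 to 0.18 in WT and -0.19 to 0.19 in KO.

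Among the lectin signalling genes Nlrp3, the inflammasome sensor, rose after LPS in both genotypes, by 1.01 ± 0.12 in WT (limma adjusted p = 0.00554) and by 1.30 ± 0.12 in KO (limma adjusted p = 0.000673). Its values were 5.07, 5.24 and 5.17 in WT unstimulated and 6.09, 6.24 and 6.18 in WT LPS arrays, with no overlap. Without WT LPS array 3 the WT effect had a limma adjusted p of 0.0507. Nlrp3 was the only one of the 23 called in either genotype in the fit without pairs, and 0 fell. The fixed block added Map3k14, the kinase NIK, which fell by 0.87 ± 0.12 in KO (limma adjusted p = 0.00746). Of the other lectins only Cd69, an early activation antigen, was called, and it rose by 1.92 ± 0.23 in WT (limma adjusted p = 0.00554) and by 1.75 ± 0.23 in KO (limma adjusted p = 0.00442).

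The last comparison asked whether the LPS effect differed between genotypes, by the difference of the LPS effects in one model. It called 0 of 24 members and 0 of 17097 genes, a share of 0%. At an unadjusted p under 0.05 it gave 0 members and 3.74% of all genes, and the lowest limma adjusted p among the members was 0.969. For Clec4e the KO effect exceeded the WT effect by 0.12 ± 0.46 (95% interval -0.89 to 1.12), and by 0.12 ± 0.20 (-0.33 to 0.56) with the pairs as a fixed block. Neither interval shows equal responses. For Clec2i the difference was -0.44 ± 0.33, and for Clec1a and Clec7a it was 0.35 ± 0.24 and 0.26 ± 0.26. Without KO LPS array 2 these differences were -0.13, 0.19 and 0.074 for Clec2i, Clec1a and Clec7a, and -0.11 for Clec4e.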

How the data were processed

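Gene expression was measured on 12 Affymetrix arrays from RNA amplified with WT-Ovation Pico, per the labels' protocols. The authors deposited log2 signals, normalised with RMA per the submitters' processing notes, with the RMA version not given in the sources used here. Of 45141 probe sets, 28898 had 1 gene symbol in the platform annotation and the 104 control probe sets were left out of the tests. The probe set with the highest mean stood for its gene, which gave 17097 genes, and 8 of the 24 members had more than 1 probe set. No filter on low values was applied, and the number of arrays limits the precision.

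One linear model with 4 group means was fitted with limma 3.58.1 in R 4.3.3 (8 residual degrees of freedom, prior 4.31) and tested on simulated data. Values after ± in a log2 difference are SEs. Adjusted p-values are Benjamini-Hochberg values over all genes within a comparison. Deviations from group means were correlated between arrays of one number: r = 0.385, 0.230 and 0.422 in WT and 0.305, 0.284 and 0.440 in KO, so these were treated as pairs and blocked as a fixed or random effect (statmod 1.5.0). Alternatives covered normalisation, low values, probe sets, moderation, array weights, blocks and leaving out each array. The rule for named genes gave all 12 values for called members and group means, ranges or counts for the rest. It also allowed values for uncalled members above the array median on all 12 arrays. Other genes were named only from lists. Members and lists were chosen with earlier results of these data known. Clec9a, Clec4a4 and Clec10a were not analysed here.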

Additional observations from a re-analysis of the deposited data

How the results depend on the processing

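Of 733 alternative values for 37 differences of named members, 695 kept direction and side of the threshold, 20 newly passed it and 18 changed sign. Members called without stimulation numbered 0 over all arrays and 0 to 1 with each array left out. After LPS the genotype comparison gave 0 to 3, LPS in KO 0 to 1 and LPS in WT 0 throughout. With the array number as a replicate block over all arrays, the genotype comparisons each called 2 members, Clec4d and Clec4e. Same-numbered arrays of different genotype correlated at -0.009, 0.091 and 0.221 without LPS and at 0.012, 0.090 and 0.189 with it. The pairs within a genotype correlated at 0.230 to 0.440. With the replicate block within genotype, LPS in WT and in KO each called 1, and that block changed no other member's call. Among all genes, calls without stimulation ranged from 5 to 166 on leaving out an array against 43, after LPS from 2 to 358 against 76, for LPS in WT from 4 to 67 against 20 and for LPS in KO from 37 to 98 against 67; the number block gave 170 and 280, the block within genotype 75 and 148.

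Some signs changed. The difference of the LPS effects (KO minus WT) became 0.14 for Clec2i with probe sets averaged and -0.11 for Clec4e with array weights. The second probe sets gave 0.020 for Clec2i with LPS in KO, 0.71 for its difference of LPS effects and -0.27 for that of Clec1a. On leaving out each array, Clec4n ranged from -0.55 to 0.19 (KO minus WT unstimulated), -0.65 to 0.051 (after LPS) and -0.54 to 0.20 (LPS in WT), Clec7a from -0.062 to 0.12 (KO minus WT unstimulated), Clec4d from -0.10 to 0.69 (LPS in WT) and -0.38 to 0.49 (LPS in KO), and the Clec4e difference of LPS effects from -0.12 to 0.51. The cause was not tested. Signal over background limits the 7 members under the array median, for which no detection calls were used here.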
